A study of Mus musculus with 7 samples.

Results

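Dusp15 and 9 genes that restrain or report signalling through the extracellular signal-regulated kinase (ERK) were described in P14 mouse optic nerves that lack fatty acid synthase (Fasn) in the oligodendrocyte (OL) lineage. The 10 genes were found by symbol among the 22880 genes of the table and hold 6 dual-specificity phosphatases (Dusp15, Dusp1, Dusp4, Dusp6, Dusp7 and Dusp10), 3 Sprouty genes (Spry1, Spry2 and Spry4) and the ETS transcription factor Etv5. They were chosen on their measured levels in this same comparison of mutant and control, so their differences between genotypes are given as a description, without p-values. The 4 control mice were Cre-negative with both Fasn alleles floxed (FASN lox/lox). The 3 mutant mice carried the same floxed alleles together with a Cre recombinase driven by the Olig2 promoter (olig2cre FASN lox/lox), which acts in the OL lineage, its progenitors included. All 7 mice were 14 days old, on a C57Bl/6 background into which the floxed line had been backcrossed for at least 3 generations, and the pair of optic nerves of 1 mouse made 1 sample. Because the controls carry no Cre, an effect of Cre itself and of the loss of Fasn cannot be told apart.

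ERK is the last kinase of a relay that runs from growth factor receptors through RAS, RAF and MEK. The relay switches on its own brakes: dual-specificity phosphatases take the activating phosphates off ERK, p38 or JNK, and Sprouty proteins hold the pathway back near the receptor. In OLs the ERK pathway drives the growth of the myelin sheath. Dusp15, also known as VHY, is a small phosphatase that is anchored to membranes by an N-terminal myristate, and in the OL lineage its gene is switched on during differentiation by Sox10 and Myrf.

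The catalytic stretch shared by the 6 phosphatases is shown in the coding sequence of the longest annotated reading frame (GENCODE M21, GRCm38), because it is what makes these otherwise different genes a family. Each stretch of 24 bases, 5′ to 3′, holds the codon of the catalytic cysteine and the codons of the histidine before it and the arginine behind it, which are in capitals.
Dusp15: CACTGCtttgcaggtatatctCGA
Dusp1: CATTGCcaggccggcatctccCGG
Dusp4: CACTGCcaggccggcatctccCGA
Dusp6: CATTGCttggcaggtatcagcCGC
Dusp7: CACTGCctagcaggcatcagcCGT
Dusp10: CACTGCcaggccggcgtgtccCGA
Of the 8 codons, Dusp1, Dusp4, Dusp6 and Dusp7 encode the same amino acid as Dusp15 at 7 and Dusp10 at 6. The 3 full reading frames annotated for Dusp15 have glycine as their second codon, the residue that can carry a myristate. That of the longest frame, which has 235 codons, is in capitals in the first 30 bases, shown beside those of Dusp22, the closest relative of Dusp15 and also a short frame of 205 codons.
Dusp15: atgGGGaatggcatgaccaaggtacttcct
Dusp22: atgGGGagtgggatgagccagatcctgccg
In the reading frames of Dusp1, Dusp4, Dusp6, Dusp7 and Dusp10, which ran from 367 to 483 codons, the second codon was not glycine.

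Fasn, the targeted gene, stood at 210.3, 169, 211 and 228 FPKM (fragments scaled for transcript length and library size) in controls 1 to 4 and at 69.3, 50.5 and 49.0 in mutants 1 to 3, so each mouse was on the side of its label. Recovered totals ran from 31313534 to 43462309 reads in the controls and from 27456269 to 35744690 in the mutants. The levels were compared with limma-trend on log2(FPKM + 0.5) over the 13866 genes with at least 0.5 FPKM in at least 3 samples, all 10 described genes among them, and a gene was called where its Benjamini-Hochberg adjusted p was below 0.05. Of all genes tested 2.62% were called, 1.36% as lower and 1.26% as higher in the mutant, and the median log2 difference of all genes was 0.05. An unadjusted p below 0.05 was found for 24.4% of all genes tested, and 60.1% had a difference above 0. The myelin gene Mbp had at least 23010 FPKM in every control. Each optic nerve is a mixture of cells, so fewer cells of a type and less RNA per cell cannot be told apart in any value given here.

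In control nerves the 10 genes spanned a 68.4-fold range of levels per transcript length. Dusp15 had the highest mean at 53.0 ± 0.945 FPKM (SD, n = 4), which was 1.48 times that of the next, Dusp7, at 36.0 ± 3.60. Etv5 followed at 21.3 ± 1.45, Dusp10 at 19.3 ± 0.973 and Dusp1 at 11.7 ± 2.84. Spry2 stood at 8.28 ± 1.21, Dusp6 at 7.36 ± 1.13 and Spry1 at 6.75 ± 0.915, with Spry4 at 2.80 ± 0.566 and Dusp4 at 0.775 ± 0.259 at the low end. The control values of Etv5 and Dusp10 overlapped, as did those of each neighbouring pair in the order Dusp1, Spry2, Dusp6 and Spry1, whereas the other neighbours in this order did not overlap. Dusp4 rested on 51 to 128 reads per sample and Dusp15 on 1899 to 4715.

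**Figure D1:**
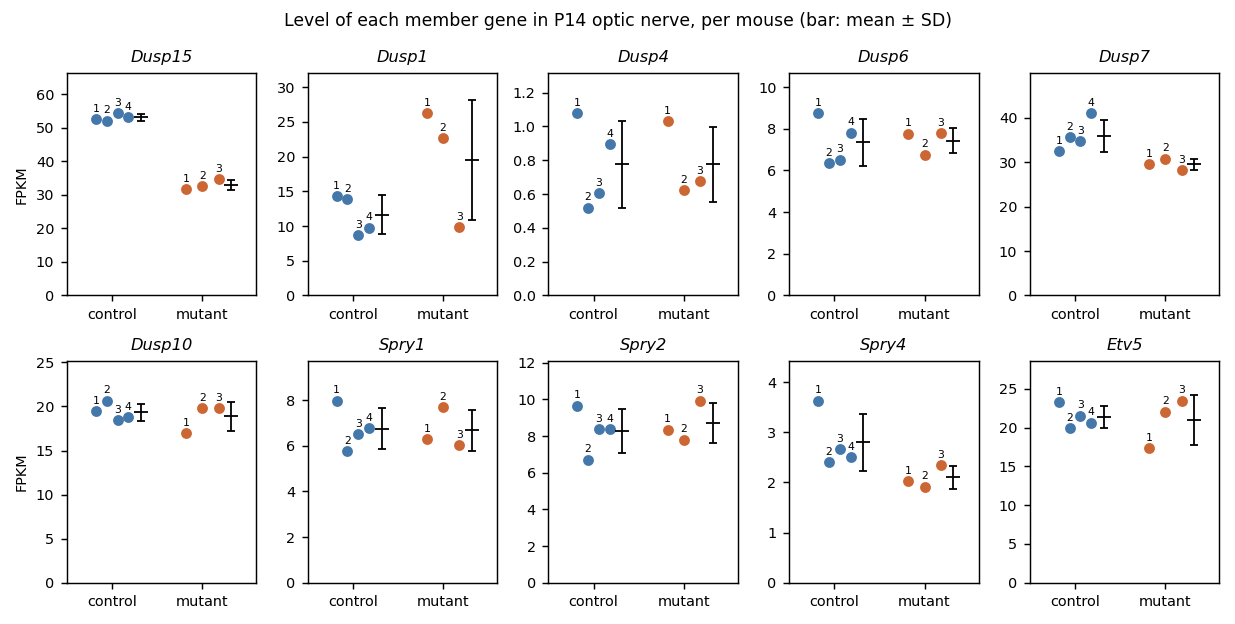
Level of each of the 10 genes in FPKM (y axis, from 0, a separate scale per gene) in 4 control and 3 mutant optic nerves, with the sample number at each point and the mean ± SD beside it. The 3 mutants lie below all 4 controls for Dusp15, Dusp7 and Spry4, and the mutants of Dusp1 spread from 9.80 to 26.2 FPKM.

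Dusp15 (ENSMUSG00000042662, chr2:152940997-152951698 on the minus strand, GRCm38) was at 52.6, 52.1, 54.3 and 53.2 FPKM in controls 1 to 4 and at 31.6, 32.6 and 34.6 in mutants 1 to 3. The mutant mean of 32.9 ± 1.53 FPKM (SD, n = 3) was 62.1% of the control mean, and the groups were separated by a gap far wider than the spread within either. The log2 difference was -0.68 with a standard error of 0.06. Dusp15 was the only 1 of the 10 genes called, which is read against nothing because the gene was chosen on this contrast. It remained called in all 17 alternative fits, with log2 differences from -0.76 to -0.65. These fits reuse the samples on which the gene was chosen, so the calls add no support.

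The spread between mice is given as a description, since a gene chosen on this contrast is apt to have a small spread within the groups. The coefficient of variation of Dusp15 over the 4 controls was 1.78%, where the median was 6.23% for the 3086 tested genes with a mean level between 0.5 and 2 times that of Dusp15, and 2.53% of those genes varied less. Among the 3 mutants its coefficient of variation was 4.63%, and 29.6% of the same genes varied less. Dusp1 lay at the other end, with 24.3% in controls and 44.2% in mutants, and 97.7% and 98.6% of the 4991 genes of like level varied less.

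Genes of the OL lineage were also lower in the mutant, and Dusp15 was lower than most of them. Sox10, a transcription factor of the whole lineage, was at 126, 139.7, 145 and 160.7 FPKM in controls and 108, 112 and 109 in mutants, without overlap, and missed the threshold (log2 difference -0.37 ± 0.08 SE, adjusted p = 0.0502). Myrf, which drives the myelin program, was at 202, 183, 197 and 204 FPKM in controls and 142, 169.9 and 154 in mutants, also without overlap and short of the threshold (-0.34 ± 0.07, adjusted p = 0.0522). The authors reported both genes as lower in mutant optic nerves, by their own test of the sequencing and by quantitative PCR. Of 11 OL transcription factors tested, Olig2, Sox8, Zfp488 and Myt1 fell, the other 7 were not called, and the median log2 difference was -0.34. Olig2 is also the gene whose promoter drives Cre in the mutants, and what that does to its level was not tested. All 11 factors were below 0, and 8 had an unadjusted p below 0.05, against 24.4% of all genes. DESeq2 on recovered reads called 8 of the 11, where it called 10.8% of all genes. With the replicate number as a block, 5 of the 11 factors were called, where 8.36% of all genes were.

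Markers of the stages of the lineage were counted in the same way. Of 9 markers of newly formed OLs, Gpr17, Tmem2, Rras2 and Casr fell, with a list median of -0.41 and a summed level of 964 to 1056 FPKM in controls and 705 to 791 in mutants. Of 12 markers of myelinating OLs, Cnp and Mag, an enzyme and an adhesion protein of myelin, fell, with a median of -0.25 and a summed level of 61971 to 69619 FPKM in controls and 44990 to 58226 in mutants. With the replicate block neither was called (adjusted p = 0.0605 for Cnp and 0.0726 for Mag). Of 8 progenitor markers, Cspg4 and Neu4 fell, with a median of -0.29 and summed levels of 221 to 233 and 175 to 209 FPKM. No marker of these lists was at 0 in any sample. Leaving out single mice undid most of these calls: without control 3 or without mutant 3 no gene of any list remained called.

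The next values set Dusp15, which was chosen for its level in this contrast, beside the lists above. Those lists were written with earlier results of these data known, so the values are a description only. The log2 difference of Dusp15 lay below that of all 12 myelinating OL markers, all 11 transcription factors, 7 of 8 progenitor markers and 7 of 9 newly formed OL markers, as the counts of 0, 0, 1 and 2 genes with a larger fall show. Relative to the mean log2 level of the 12 myelinating OL markers in the same mouse, and with the control mean set to 0, Dusp15 was at -0.29, -0.64 and -0.25 in mutants 1 to 3, and between -0.09 and 0.06 in the controls. The mutant farthest below 0 on this measure was mutant 2, the one whose myelin markers were closest to control. Relative to the newly formed OL markers Dusp15 was at -0.28, -0.19 and -0.16 in the mutants and between -0.10 and 0.07 in the controls. The groups did not overlap on either measure. How far the share of OLs in the nerve enters into the level of Dusp15 was not tested.

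**Figure D2:**
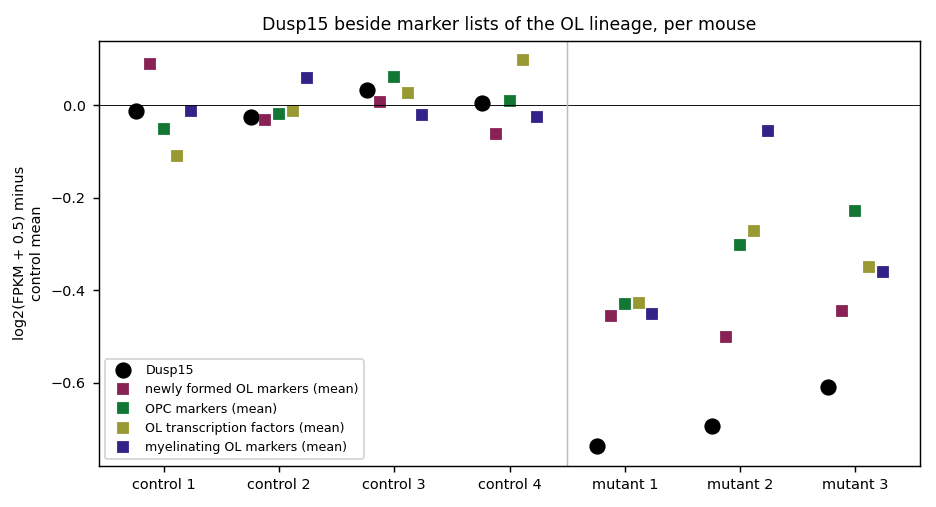
Level of Dusp15 (circles) and mean level of the marker lists of the OL lineage (squares) in each mouse, as log2(FPKM + 0.5) minus the mean of the 4 controls (y axis). Dusp15 is below every list mean in each of the 3 mutants, and the myelinating OL markers of mutant 2 are close to 0.

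The genes whose pattern over the 7 samples was most like that of Dusp15 were found by the root mean square difference of log2(FPKM + 0.5) relative to each gene's control mean, over 9450 other genes with a mean of at least 5 FPKM. The nearest was 1810041L15Rik, at a difference of 0.0492, with 78.5 ± 1.76 FPKM in controls and 49.2 ± 4.78 in mutants. Birc2, an inhibitor of apoptosis, followed at 0.0819, Sema4f, a semaphorin, at 0.0836, Gpr176, an orphan receptor, at 0.0866 and Dscaml1, an adhesion molecule, at 0.0871. The small gene Gm22651 overlaps Gpr176. The median difference over all genes compared was 0.477. Myt1, a zinc finger factor of progenitors and early OLs, ranked 8, Gpr17 ranked 38 and Sox8 ranked 49, ahead of Sox10 at 187 and Myrf at 225. Of the other described genes with enough signal, Dusp7 was the nearest at rank 477 and Dusp1 the farthest at rank 9351.

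Dusp6 and Dusp7, with Dusp9, are the cytoplasmic phosphatases selective for ERK. Dusp7 (ENSMUSG00000053716, chr9:106368632-106375724, plus strand) was at 32.4, 35.6, 34.8 and 41.0 FPKM in controls and 29.6, 30.8 and 28.2 in mutants. Every mutant was below every control, and the mutant mean of 29.5 ± 1.30 FPKM was 82.0% of the control mean. Its log2 difference of -0.28 (SE 0.08) was not called by limma-trend. It was called by DESeq2 on recovered reads, at -0.34, where 10.8% of all genes were called, and with sample quality weights, at -0.30, where 11% were. Leaving out each mouse in turn left the difference between -0.32 and -0.21.

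Dusp6 (ENSMUSG00000019960, chr10:99263231-99267488, plus strand), a gene that ERK activity itself induces, was at 8.74, 6.36, 6.52 and 7.81 FPKM in controls and 7.76, 6.75 and 7.78 in mutants. The mutants lay inside the control range. The log2 difference was 0.02 with a 95% interval of -0.25 to 0.30, and its sign was negative in 9 of the 17 alternatives. Dusp9, the third gene of this group, was low, at 1.11, 1.28, 1.08 and 1.49 FPKM in controls, and fell to 0.658, 0.626 and 0.656 in mutants (log2 difference -0.60 ± 0.13 SE, adjusted p = 0.0491). Leaving out any 1 of the 7 mice lost this call (adjusted p from 0.0570 to 0.121), as did the replicate block (adjusted p = 0.0667).

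Dusp4 and Dusp1 encode inducible phosphatases of the nucleus. Dusp4 (ENSMUSG00000031530, chr8:34807297-34819894, plus strand) was at 1.08, 0.521, 0.605 and 0.897 FPKM in controls and 1.03, 0.622 and 0.678 in mutants. The groups overlapped fully, and the log2 difference of 0.01 had a 95% interval of -0.43 to 0.45, the widest of the genes with a difference near 0.

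Dusp1 (ENSMUSG00000024190, chr17:26505590-26508519, minus strand), an immediate early gene that acts on p38, JNK and ERK, was at 14.3, 13.9, 8.70 and 9.76 FPKM in controls and 26.2, 22.6 and 9.80 in mutants. Mutants 1 and 2 were above all controls, and mutant 3 was level with the lowest controls. The mutant mean of 19.6 ± 8.64 FPKM was 1.68 times the control mean, but the log2 difference of 0.64 had a standard error of 0.31 and was not called. With the replicate number as a block, Dusp1 was called at 0.57, where 8.36% of all genes were called. The difference was 1.06 without mutant 3 and 0.37 without mutant 1.

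The immediate early genes split the mutants in the same way. Of 16 tested, 14 were lower in mutant 3 than in mutants 1 and 2, as were 3488 of the 13866 genes tested in all. Fos, which pairs with JUN proteins in the factor AP-1, stood at 0.58 and 0.66 in mutants 1 and 2 and at -0.65 in mutant 3, on log2(FPKM + 0.5) relative to the control mean. Egr1, a zinc finger factor induced by ERK, stood at 1.25, 0.45 and -0.49, and Cyr61, a secreted matrix protein, at 0.82, 1.01 and -0.62. Mutant 1 was above all controls for 10 of the 16 genes, mutant 2 for 9 and mutant 3 for 1. No immediate early gene was called by limma-trend or edgeR, and 2 of 16 had an unadjusted p below 0.05 against 24.4% of all genes. DESeq2 called 2, against 10.8% of all genes, and the replicate block 1, against 8.36%. Klf4 had the largest log2 difference at 0.75 ± 0.21 SE (adjusted p = 0.0848), and Jun, the other of the pair with the highest control levels, was at 0.17 ± 0.13 (adjusted p = 0.443). The summed level of the 18 listed genes was 100.1 to 124 FPKM in controls and 97.8 to 185 in mutants. What set the immediate early genes of mutants 1 and 2 apart from mutant 3 was not tested.

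**Figure D3:**
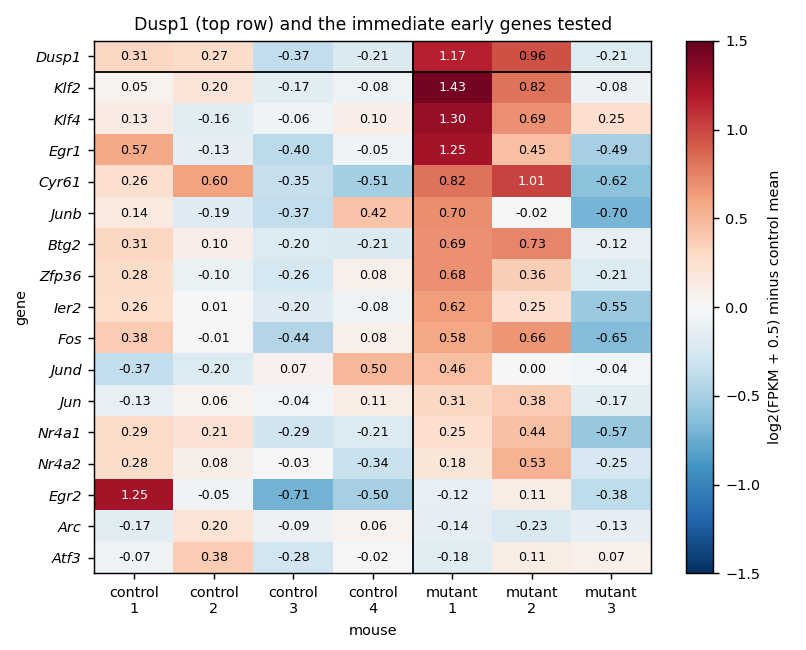
Dusp1 (top row) and the 16 immediate early genes tested (rows) in each mouse (columns), as log2(FPKM + 0.5) minus the mean of the 4 controls, in colour and in digits. Dusp1 stands at 1.17 and 0.96 in mutants 1 and 2 and at -0.21 in mutant 3, and 14 of the 16 other genes are also lowest in mutant 3 among the mutants.

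The promoter of Dusp1 is shown because Dusp1 varied most of these genes between the mutant mice, and its promoter was the only 1 of the 8 read for 7 of the genes that held a cAMP response element (CRE), the palindrome TGACGTCA, which 1.79% of all 32851 RefSeq promoters hold. The window of 300 bases covers the annotated start and, for most of its length, the bases before it (RefSeq, GRCm38.p6, chr17:26508423-26508722, minus strand). Capitals mark the full CRE and every CRE core TGACG on either strand, the palindrome being 2 overlapping cores.
Dusp1: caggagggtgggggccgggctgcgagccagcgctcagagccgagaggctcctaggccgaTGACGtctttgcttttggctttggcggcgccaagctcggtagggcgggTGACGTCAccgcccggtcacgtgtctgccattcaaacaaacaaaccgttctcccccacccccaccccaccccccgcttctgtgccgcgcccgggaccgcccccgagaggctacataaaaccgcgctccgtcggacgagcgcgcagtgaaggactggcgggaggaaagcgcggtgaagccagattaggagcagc
The core occurred at 3 places in Dusp1 and in none of the other promoters read, and 20.8% of all promoters hold it. The ETS motif CCGGAAGT, held by 3.89% of all promoters, and the AP-1 motif TGANTCA, held by 7.81%, occurred in none of the 8 on either strand. These matches describe letters in 1 window and are not evidence of binding.

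Dusp10 (ENSMUSG00000039384, chr1:184013302-184075636, plus strand) prefers p38 and JNK over ERK. It was at 19.5, 20.7, 18.5 and 18.8 FPKM in controls and 17.0, 19.8 and 19.9 in mutants. The groups overlapped, and the log2 difference of -0.04 had a 95% interval of -0.21 to 0.14. The gene 1700056E22Rik lies within Dusp10 on the other strand.

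The Sprouty genes encode inhibitors of receptor tyrosine kinase signalling that act between receptor and RAF. Spry4 (ENSMUSG00000024427, chr18:38586268-38601268, minus strand) was at 3.63, 2.40, 2.66 and 2.503 FPKM in controls and 2.03, 1.92 and 2.35 in mutants. The groups did not overlap, though mutant 3 and control 2 were separated by less than the spread within either group. Its log2 difference of -0.33 (SE 0.14) was not called, and without single mice it ran from -0.40 to -0.22. Spry1 (ENSMUSG00000037211, chr3:37639947-37644598, plus strand) was at 7.98, 5.78, 6.50 and 6.76 FPKM in controls and 6.30, 7.68 and 6.04 in mutants. Spry2 (ENSMUSG00000022114, chr14:105891949-105896819, minus strand) was at 9.67, 6.72, 8.36 and 8.39 FPKM in controls and 8.35, 7.81 and 9.94 in mutants. Both overlapped between genotypes, with log2 differences of -0.02 (95% interval -0.30 to 0.27) for Spry1 and 0.07 (-0.22 to 0.36) for Spry2.

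Etv5 (ENSMUSG00000013089, chr16:22381309-22439719, minus strand), an ETS factor induced by fibroblast growth factor and ERK, was at 23.3, 19.9, 21.5 and 20.6 FPKM in controls and 17.3, 22.04 and 23.5 in mutants. The mutants lay on both sides of the controls, and the log2 difference was -0.03 with a 95% interval of -0.28 to 0.21.

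Set side by side, 3 of the 10 genes (Dusp15, Dusp7 and Spry4) had groups that did not overlap, where 21.1% of all genes tested did not overlap. The median log2 difference of the 10 was -0.03. The signs for Dusp4, Dusp6, Dusp10, Spry1, Spry2 and Etv5 changed among the alternatives, so no direction is given for them.

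**Figure D4:**
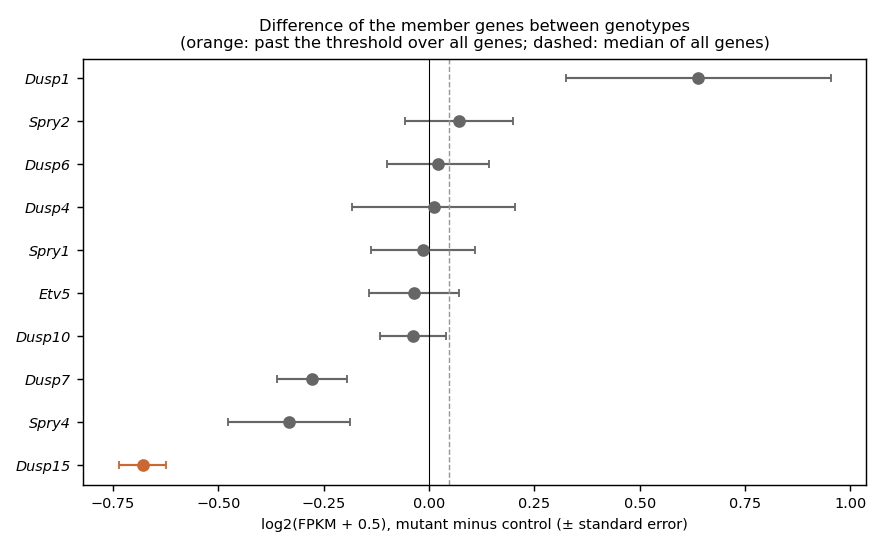
Difference of each of the 10 genes between genotypes on log2(FPKM + 0.5), mutant minus control (x axis), with the standard error as bars, 0 as a solid line and the median of all genes, 0.05, as a dashed line. Dusp15 at -0.68 is the only gene past the threshold over all genes, Dusp1 at 0.64 has the widest bar, and the bars of 6 genes reach across 0.

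The rest of the pathway was read from lists of 126 other genes, of which 120 were tested and 4 called, 2 higher and 2 lower, or 3.33%. Dusp9, described above, was the only 1 called of 15 other dual-specificity phosphatase genes, whose median was 0.02. Dusp22 was at 9.92, 11.2, 8.30 and 9.93 FPKM in controls and 11.03, 10.1 and 12.6 in mutants and was not called (0.19 ± 0.11 SE, adjusted p = 0.339). The members with the highest control levels were Dusp26 (-0.35 ± 0.12, adjusted p = 0.133) and Dusp3 (-0.09 ± 0.07, adjusted p = 0.458). Of 24 genes of the RAS-RAF-MEK-ERK cascade, whose median was 0.02, Rras2, a RAS-like GTPase also listed among newly formed OL markers, fell from 55.8, 55.5, 52.8 and 40.1 FPKM in controls to 31.2, 34.0 and 31.7 in mutants (-0.64 ± 0.11, adjusted p = 0.0327). Mapk3, which encodes ERK1, was at -0.04 ± 0.06 (adjusted p = 0.721) and Nras at -0.38 ± 0.09 (adjusted p = 0.0573).

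Receptors and ligands had the highest median of the pathway lists, at 0.37, with 15 of 19 tested genes above 0, where 60.1% of all genes were. Fgf2, a growth factor for progenitors, rose from 31.7, 29.7, 30.5 and 33.3 FPKM in controls to 46.4, 50.3 and 40.9 in mutants (0.54 ± 0.08, adjusted p = 0.0214) and was the only 1 called. An unadjusted p below 0.05 was found for 12 of the 19, against 24.4% of all genes. The groups did not overlap for 9 of the 19, against 21.1% of all genes. DESeq2 called 7, where it called 10.8% of all genes, and the replicate block 6, where 8.36% were called. Ntrk2, which encodes the receptor TrkB, was at 0.37 ± 0.09 (adjusted p = 0.0604) and Fgfr2 at 0.11 ± 0.07 (adjusted p = 0.329). Astrocyte markers moved beside this list: all 10 were above 0, Aldh1l1, Slc1a2, Gja1, Aldoc and S1pr1 rose, the median was 0.53, and their summed level was 3079 to 3530 FPKM in controls and 3971 to 4881 in mutants, with none at 0. Fgfr3 is on both lists. Fibroblast markers were higher too, with a median of 0.59. Pdgfra, at -0.14, is on the fibroblast, the receptor and ligand and the progenitor lists. Relative to the control mean, the mean log2 level of the receptors and ligands was 0.45, 0.13 and 0.29 in mutants 1 to 3, that of the fibroblast markers 1.02, 0.23 and 0.34, and that of the astrocyte markers 0.31, 0.55 and 0.63. Receptors and ligands and fibroblast markers were both highest in mutant 1 and lowest in mutant 2, and astrocyte markers were lowest in mutant 1. This order was not particular to them. It also held for p38 and JNK genes (0.19, 0.03 and 0.16), other inhibitors (0.11, 0.08 and 0.10) and the RAS-RAF-MEK-ERK cascade (0.04, -0.013 and -0.005). Mural cell markers were also highest in mutant 1 (0.41, 0.19 and 0.19). The part of any of these cell types in the receptor and ligand values was not tested.

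Of 16 ETS factors and ERK target genes, Ets1 rose from 14.5, 13.5, 12.6 and 12.9 FPKM in controls to 18.4, 16.5 and 17.1 in mutants (0.36 ± 0.08, adjusted p = 0.0454), and the median was 0.10. Spsb1 was at -0.26 ± 0.10 (adjusted p = 0.162) and Phlda3 at -0.42 ± 0.16 (adjusted p = 0.156). Of these 16 genes, 8 had an unadjusted p below 0.05, against 24.4% of all genes. The groups did not overlap for 4, against 21.1% of all genes. For this list edgeR called 0, DESeq2 3, against 10.8% of all genes, and the replicate block 2, against 8.36%. Ets1 is also a gene of endothelial cells, and all 10 endothelial markers were above 0, with summed levels of 191 to 230.5 FPKM in controls and 246 to 271 in mutants, without overlap. None of the 10 was called by limma-trend or edgeR, and 4 had an unadjusted p below 0.05 against 24.4% of all genes. DESeq2 called 2, against 10.8% of all genes, and the block 1, against 8.36%. The part of vessels in the level of Ets1 was not tested.

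Of 14 other inhibitors of the pathway none was called by limma-trend or edgeR, and the median was 0.13. An unadjusted p below 0.05 was found for 2 of them, against 24.4% of all genes. DESeq2 called 1, against 10.8% of all genes, and the replicate block 1, against 8.36%. Lztr1, which promotes the breakdown of RAS proteins, came closest, at 58.6, 61.2, 61.1 and 63.9 FPKM in controls and 73.1, 70.8 and 76.6 in mutants (0.26 ± 0.06, adjusted p = 0.05004). Pebp1, the RAF inhibitor protein, was at -0.09 ± 0.06 (adjusted p = 0.414). Of 16 genes of the p38 and JNK cascades none was called by limma-trend or edgeR, and the median was 0.08. Against the same shares of all genes, 2 had an unadjusted p below 0.05, DESeq2 called 2 and the block 1.

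The calls among these genes depended on single mice. Fgf2 remained called in 3 of the 7 fits without 1 mouse, Rras2 in 2 and Ets1 in 1. Without control 1, control 2, control 3 or mutant 3 none of these 3 was called, and their adjusted p ran up to 0.0933 for Fgf2, 0.111 for Rras2 and 0.142 for Ets1.

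**Figure D5:**
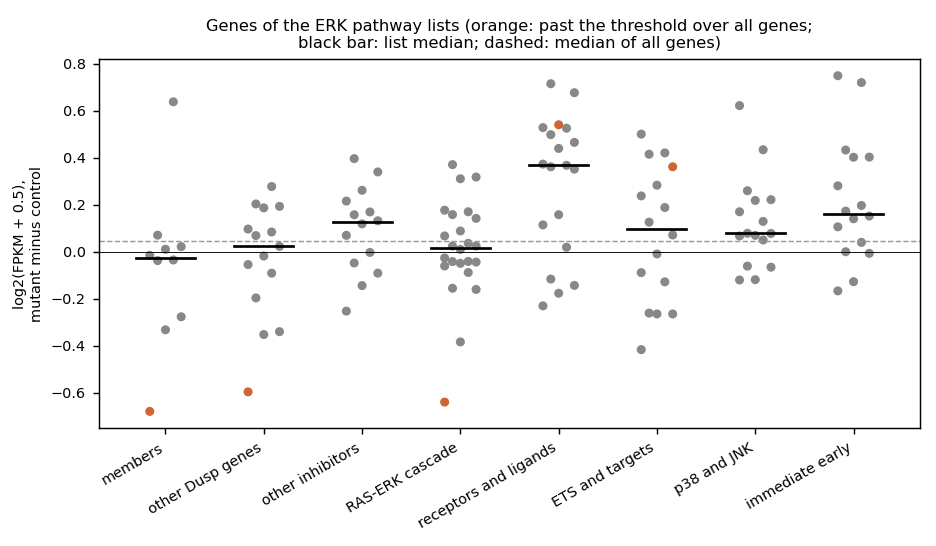
Log2 difference, mutant minus control (y axis), of the 10 described genes and of each tested gene of the pathway lists (x axis), with called genes in orange, list medians as black bars and the median of all genes, 0.05, as a dashed line. Dusp15, Dusp9 and Rras2 are the called genes below 0 and Fgf2 and Ets1 those above, and receptors and ligands have the highest median, at 0.37.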

How the data were processed

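RNA of P14 optic nerves from 4 control and 3 mutant mice was sequenced as polyadenylated RNA with a stranded kit, in single end mode. Per the labels and the submitters' processing notes, the authors used STAR 2.5.1b, RSEM 1.2.22 and edgeR with GRCm38. The authors deposited 1 table of 22880 genes with a normalized count, treated as a signal scaled per sample, and an FPKM value for each of the 7 samples. Whether the counting used the strand is not given in the sources used here. GC content, deposited by the authors as a fraction per gene, was not used for any result. The table also holds the authors' own fold changes, p-values and FDR between genotypes, which were not used.

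Levels are the deposited FPKM values. The test was limma-trend (limma 3.58.1, R 4.3.3) on log2(FPKM + 0.5), two-sided, with genotype as the only term, for genes with at least 0.5 FPKM in at least 3 samples, adjusted by Benjamini-Hochberg over 13866 genes. Differences are on this log2 scale, which understates the change of low genes. The value of 1 read per sample was recovered from the steps of the deposited normalized counts. Between 73.7% and 78.7% of values from 0.5 to 10 reads were then whole within 0.02, since RSEM estimates need not be whole. Reads rounded to whole numbers were used for depth and for edgeR 4.0.16 (372 genes called) and DESeq2 1.42.0, both chosen after seeing the data. The methods were tested on simulated data. The other alternatives were pseudocounts of 0.1 and 1, no filter, rescaling by median ratios, quantile normalization, the normalized counts on log2(value + 10), sample quality weights and leaving out each mouse.

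The described genes and all gene lists were chosen with earlier results of these data known. Named are the 10 genes, Fasn, list genes past the threshold, the pair of genes with the highest control mean in each pathway list, Sox10, Myrf, Dusp22 and the 5 genes most like Dusp15. Fos, Egr1, Cyr61, Lztr1 and the likeness ranks of Gpr17, Sox8 and Myt1 were chosen after their values were seen. Deviations of samples of the same number had correlations of 0.168 to 0.409 over 3 pairs, against -0.353 to 0.205 over 9 pairs of different numbers. These ranges overlap, and the labels do not say what the numbers stand for, so the pairing is an assumption. Same-numbered mice were treated as pairs in an alternative fit that has the number as a block. In that fit control 4, which has no partner, adds nothing to the difference. Promoters came from RefSeq (GRCm38.p6) for 7 of the 10 genes. Dusp15 and Dusp4 had no entry, and Spry4 was not read. Coding stretches came from GENCODE M21. Figures were drawn with matplotlib 3.10.9.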

Additional observations from a re-analysis of the deposited data

Results flagged for a closer look

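The levels of the 4 controls were checked for a sample far from the others in 31 genes, the 10 described, Fasn and the 20 called list genes. Chance marks about 1 in 20. The only one marked was Cnp, a myelin enzyme, whose control 1 was at 2580 FPKM against 2751 to 2783 in the other controls. None of the 10 described genes was marked.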

How the results depend on the processing

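Dusp15 was called, and lower in the mutant, in all 17 alternatives, at -0.76 on normalized counts and -0.74 by edgeR and by DESeq2. The gene was chosen on these same samples, so this describes the processing only. The number of described genes called was 1 in every fit that left out a mouse and 2 with the replicate block (Dusp15 and Dusp1), with sample quality weights and by DESeq2 (Dusp15 and Dusp7 in both). Over all genes 363 were called, against 95 without a filter on low values, 1159 with the replicate block, 1525 with quality weights, 1610 by DESeq2 and 6 to 909 when 1 mouse was left out (6 without control 3 or mutant 3, 909 without mutant 2). Of the list genes 20 were called, against 5 without a filter, 47 with the replicate block, 53 with quality weights, 57 by DESeq2 and 0 to 37 without 1 mouse. Of the called list genes, 204 of the single values under the alternatives stayed past the threshold, 136 did not, and none changed sign. The causes were not tested. With 51 to 128 reads, Dusp4 was limited most by depth.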

Other observations

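Markers of the remaining cell types of the nerve were also read. Of all genes tested, 60.1% had a difference above 0 and 24.4% an unadjusted p below 0.05. All 10 microglia markers were above 0, with a median log2 difference of 0.10, and all 8 mural cell markers, with a median of 0.20. Of 10 fibroblast markers 9 were above 0, with a median of 0.59 and a summed level of 2031 to 2861 FPKM in controls and 2713 to 5160 in mutants. Of 9 neuron markers 7 were above 0, with a median of 0.25. No gene of these lists was called by limma-trend or edgeR. The numbers with an unadjusted p below 0.05 were 3 for microglia, 2 for mural cells, 6 for fibroblasts and 1 for neurons. DESeq2, which called 10.8% of all genes, called 0, 1, 4 and 0 markers in the same order. With the replicate number as a block, 1 microglia, 2 mural, 7 fibroblast and 1 neuron marker were called, where 8.36% of all genes were.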
